A study of Mus musculus with 12 samples.

Results

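Cytosolic ribosomal protein genes were followed across whole-brain samples of mice in a chemical model of neuronopathic Gaucher disease. Members were chosen by name alone: every entry of the count table whose symbol has the form of a large-subunit (Rpl) or small-subunit (Rps) protein gene, together with Rplp0, Rplp1, Rplp2 and Rpsa, and without pseudogene names and the Rps6k kinase genes. The rule found 84 members among 16482 genes with a usable symbol, 49 of the large and 35 of the small subunit. Of these, 82 had enough counts to be tested, 47 of the large and 35 of the small subunit, among 12623 genes tested in all. The 2 left out were Rpl24, with 69 counts over all libraries, and Rpl39l, a paralog of Rpl39, with 37. The rule also takes in the paralogs Rpl22l1, Rpl7l1 and Rps27l. Its filter on pseudogenes reads names only, so it also takes in Rps3a2 and Rps3a3, which GENCODE vM21 lists as processed pseudogenes, and Rps4l, listed there as a transcribed processed pseudogene. It leaves out Rpl36al and the fusion gene Fau because of how they are named.

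All mice were of the C57BL/6 strain, and RNA of the whole brain was read with bulk MARS-seq, a method in which only a tag near the 3′ end of each transcript is sequenced. The labels give 3 groups of 4 samples. Control mice received PBS, and their samples were taken at postnatal day 40. CBE mice received conduritol B epoxide, an inhibitor of the lysosomal enzyme glucocerebrosidase, with replicates 2 and 3 taken at day 34 and replicates 4 and 6 at day 40. CBE+GZ-667161 mice received CBE together with GZ-667161, an inhibitor of the synthesis of glucosylceramide, and their samples were taken at day 40. No group carried an engineered allele per the labels, and a group given GZ-667161 alone was not analysed here. Whether every sample is a different animal is not in the labels, and the p-values then measure only how these samples spread, part of which may be technical.

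Ribosomal proteins and ribosomal RNA together form the cytosolic ribosome, which translates messenger RNA in every cell. The small subunit reads the messenger and the large subunit joins the amino acids, while the stalk made by the products of Rplp0, Rplp1 and Rplp2 recruits the translation factors. Messengers of ribosomal protein genes begin with a run of pyrimidines, the 5′ terminal oligopyrimidine (5′ TOP) motif, through which growth signalling by mTORC1 and the binding protein LARP1 sets their translation and stability together. Many members also have processed pseudogenes, copies that make short tags hard to assign to one gene.

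The start regions of the members that passed a test below are shown first, since the 5′ TOP motif is described for messengers of this family. RefSeq promoter windows of build GRCm38.p6 were matched by symbol for 61 of the 84 members. Each line gives 30 bases before and 20 bases from the start site on, read 5′ to 3′ on the strand of the gene, and capitals mark a run of at least 5 C or T bases that touches the 5 bases on either side of the start. Members that were higher in CBE than in PBS come first, then Rpl13a, which was lower in CBE, then Rps7 and Rps25, which passed in the comparisons with GZ-667161. Rpl32 also passed and had no window in the table. Rps13, Rplp0, Rpl22, Rpl23 and Rps25 had no such run, and the runs of Rpl19 and Rps7 end before the start.
Rps13, chr7:116334171-116334220, minus strand: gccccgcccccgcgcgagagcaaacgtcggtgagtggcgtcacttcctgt
Rplp0, chr5:115559437-115559486, plus strand: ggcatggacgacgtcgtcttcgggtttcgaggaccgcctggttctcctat
Rps9, chr7:3704011-3704060, plus strand: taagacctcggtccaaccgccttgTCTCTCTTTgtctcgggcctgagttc
Rpl22, chr4:152325696-152325745, plus strand: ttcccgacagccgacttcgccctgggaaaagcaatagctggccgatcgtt
Rpl19, chr11:98026894-98026943, plus strand: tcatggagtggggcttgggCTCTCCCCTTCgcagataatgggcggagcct
Rps18, chr17:33955646-33955695, minus strand: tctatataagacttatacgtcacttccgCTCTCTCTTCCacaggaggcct
Rplp2, chr7:141447621-141447670, plus strand: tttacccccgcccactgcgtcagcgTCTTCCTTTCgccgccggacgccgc
Rpl12, chr2:32961682-32961731, plus strand: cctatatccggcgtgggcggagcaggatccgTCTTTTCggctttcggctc
Rpl23, chr11:97782420-97782469, minus strand: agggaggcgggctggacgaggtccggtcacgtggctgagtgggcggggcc
Rpl13a, chr7:45128726-45128775, minus strand: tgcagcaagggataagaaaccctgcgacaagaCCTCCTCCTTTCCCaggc
Rps7, chr12:28635934-28635983, minus strand: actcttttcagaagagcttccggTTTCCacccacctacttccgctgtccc
Rps25, chr9:44407684-44407733, plus strand: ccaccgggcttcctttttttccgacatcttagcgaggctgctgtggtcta

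A run of at least 8 C or T bases at the start was present in 34.4% of the 61 member windows, against 9.37% of all 32817 promoter windows in the table. The motif CTTTCC, whose letters are also those of many such runs, stood on either strand somewhere in the 300 bases of 50.8% of member windows and 26.6% of all windows. CCGGAAG, the core of sites bound by ETS factors, stood on either strand in 39.3% of member windows and 8.86% of all windows. Its overlap with CTTTCC was not counted. Among the 9 windows of members higher in CBE, 4 held a start run of at least 8 bases, as did 17 of the 52 other windows. CCGGAAG stood in 2 of the 9 and 22 of the 52, CTTTCC anywhere in 5 and 26, and CTTTCC beside the start in 0 and 8. Rpl13a, the 1 member that was lower in CBE, had a start run of 14 bases. These are matches of letters near annotated starts, and the RefSeq starts shown lie 0 to 575 bases from the start of the 1 GENCODE transcript chosen per gene.

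Over all 84 members, the share of a library's counts was 6.28%, 5.68%, 6.03% and 5.28% in the PBS libraries (replicates 2, 3, 4 and 5, in that order here and below). The day 34 CBE libraries (replicates 2 and 3) had 6.81% and 6.74%, and the day 40 ones (replicates 4 and 6) 6.73% and 6.58%. The shares with GZ-667161 (replicates 2, 3, 4 and 5) were 6.01%, 6.83%, 6.18% and 6.33%. All 4 CBE libraries thus lay above all 4 PBS libraries, while CBE+GZ-667161 libraries overlapped both groups. Group means were 5.82 ± 0.437% in PBS, 6.72 ± 0.0959% in CBE and 6.34 ± 0.353% in CBE+GZ-667161 (SD, n = 4 each), so the mean share in CBE was 1.155 times that in PBS. Large-subunit and small-subunit genes showed the same order of groups, with 3.27 ± 0.246% and 2.54 ± 0.191% in PBS, 3.74 ± 0.0971% and 2.98 ± 0.0484% in CBE, and 3.60 ± 0.182% and 2.74 ± 0.175% in CBE+GZ-667161. The widest exact 95% binomial interval of a library was 0.0743 percentage points, which covers counting error only and is far narrower than the spread between replicates. No test was made on this sum.

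**Figure D1:**
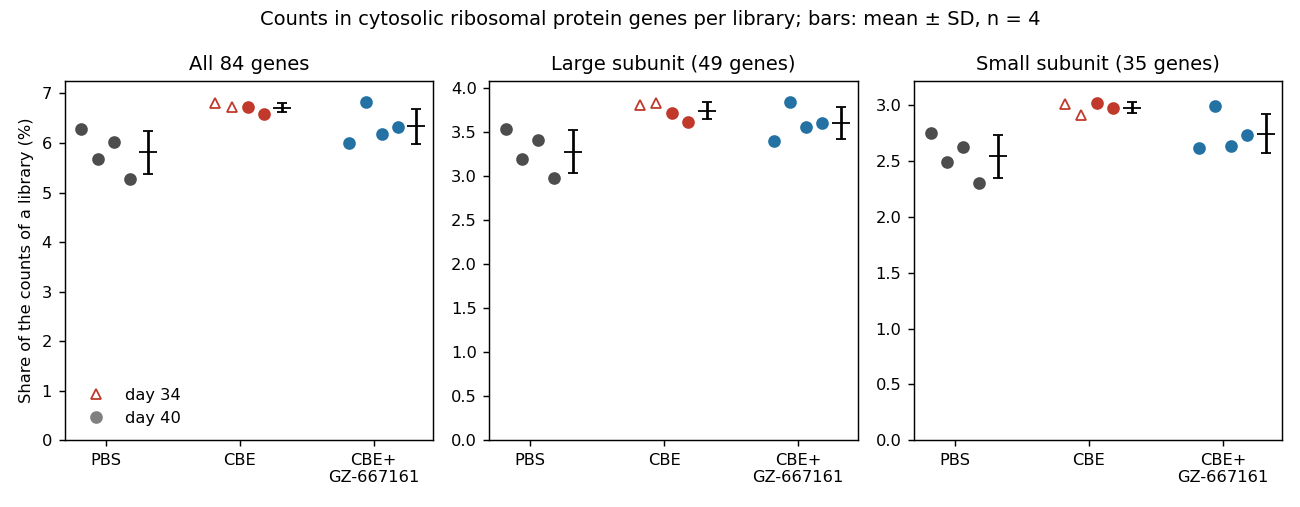
Share of a library's counts (%, y axis from 0) in all 84 members, in the 49 large-subunit and in the 35 small-subunit genes, for PBS, CBE and CBE+GZ-667161 libraries. Points are libraries (open triangles day 34, filled circles day 40), bars are mean ± SD of 4; for all members the CBE libraries sit between 6.58% and 6.81% and the PBS libraries between 5.28% and 6.28%.

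Other features of the libraries also varied, several of them between PBS and CBE, and they did not all follow this share. Total counts ran from 1753626 to 6499257, with the day 34 CBE libraries the shallowest and PBS replicate 5 the deepest, and that deepest library had the lowest share. PBS replicate 4 (2414960 counts) and CBE+GZ-667161 replicate 5 (2211446 counts) were shallower than both day 40 CBE libraries and had shares of 6.03% and 6.33%. The summed level of 10 microglia markers, none at 0 in any library, ran from 837 to 931 CPM in PBS (CPM being counts at a common library size), 2812 to 4330 in CBE and 1739 to 3059 in CBE+GZ-667161, and 8 of the 10 rose in CBE over PBS. For 7 markers of activated microglia, of which Clec7a and Itgax were at 0 in some libraries, the sums were 34.9 to 42.6, 719 to 883 and 204 to 562 CPM, and 7 rose. Of 6 astrocyte markers 4 rose (2330 to 2742, 3057 to 3488 and 2724 to 3036 CPM), and of 8 neuron markers 5 fell (5237 to 5430, 3654 to 4837 and 4280 to 5211 CPM), with none of either list at 0. The sums of 6 oligodendrocyte markers were 5541 to 6865, 2855 to 5790.1 and 3465 to 7976 CPM, and none of the 6 passed in CBE over PBS by edgeR, while 5 were lower at p under 0.05 with no adjustment and 1 by DESeq2 and by limma-voom. The sums of 5 erythroid markers were 1964 to 4037, 1249 to 1734 and 1414 to 3910.4 CPM, so that PBS and CBE did not overlap, and 1 of the 5, Hbb-bt, fell. No marker of these lists was at 0 in any library. Counts of mitochondrially encoded genes took 0.347% to 0.444% in PBS, 0.255% to 0.325% in CBE and 0.356% to 0.445% in CBE+GZ-667161. They took 0.443% in CBE+GZ-667161 replicate 3, which had the highest share of ribosomal protein genes. Xist, the RNA that silences an X chromosome in females, was above 7.9 CPM in 2 PBS libraries (replicates 4 and 5) and 3 with GZ-667161 (replicates 2, 3 and 5) and at most 0.555 CPM in the other 7 libraries, so the sexes were not balanced. Their part in the results was not tested, except that Xist was tried as a covariate. In whole-tissue RNA, fewer cells of a type and less RNA per cell cannot be told apart.

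CBE was compared with PBS to ask which members accompany loss of glucocerebrosidase activity. In this comparison 11 of the 82 tested members were higher and 1 was lower, at an adjusted p under 0.05 in edgeR's quasi-likelihood test. Over all 12623 genes 6.95% were higher and 4.04% lower by the same rule. Of the large-subunit genes 8 of 47 rose and 1 fell, and of the small-subunit genes 3 of 35 rose and 0 fell. The rises were modest, and the 1 fall was to 0.573 of the PBS level. The median log2 fold change of the members was 0.19, against -0.01 over all genes, and 70 of the 82 lay above 0, against 48.2% of all genes. In 22 members all 4 CBE libraries lay above all 4 PBS libraries, and in 1 all lay below, where such separation occurred in 8.61% and 7.00% of all genes. With no adjustment, at p under 0.05, 30 members were higher and 1 lower, against 13.1% and 11.7% of all genes.

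**Figure D2:**
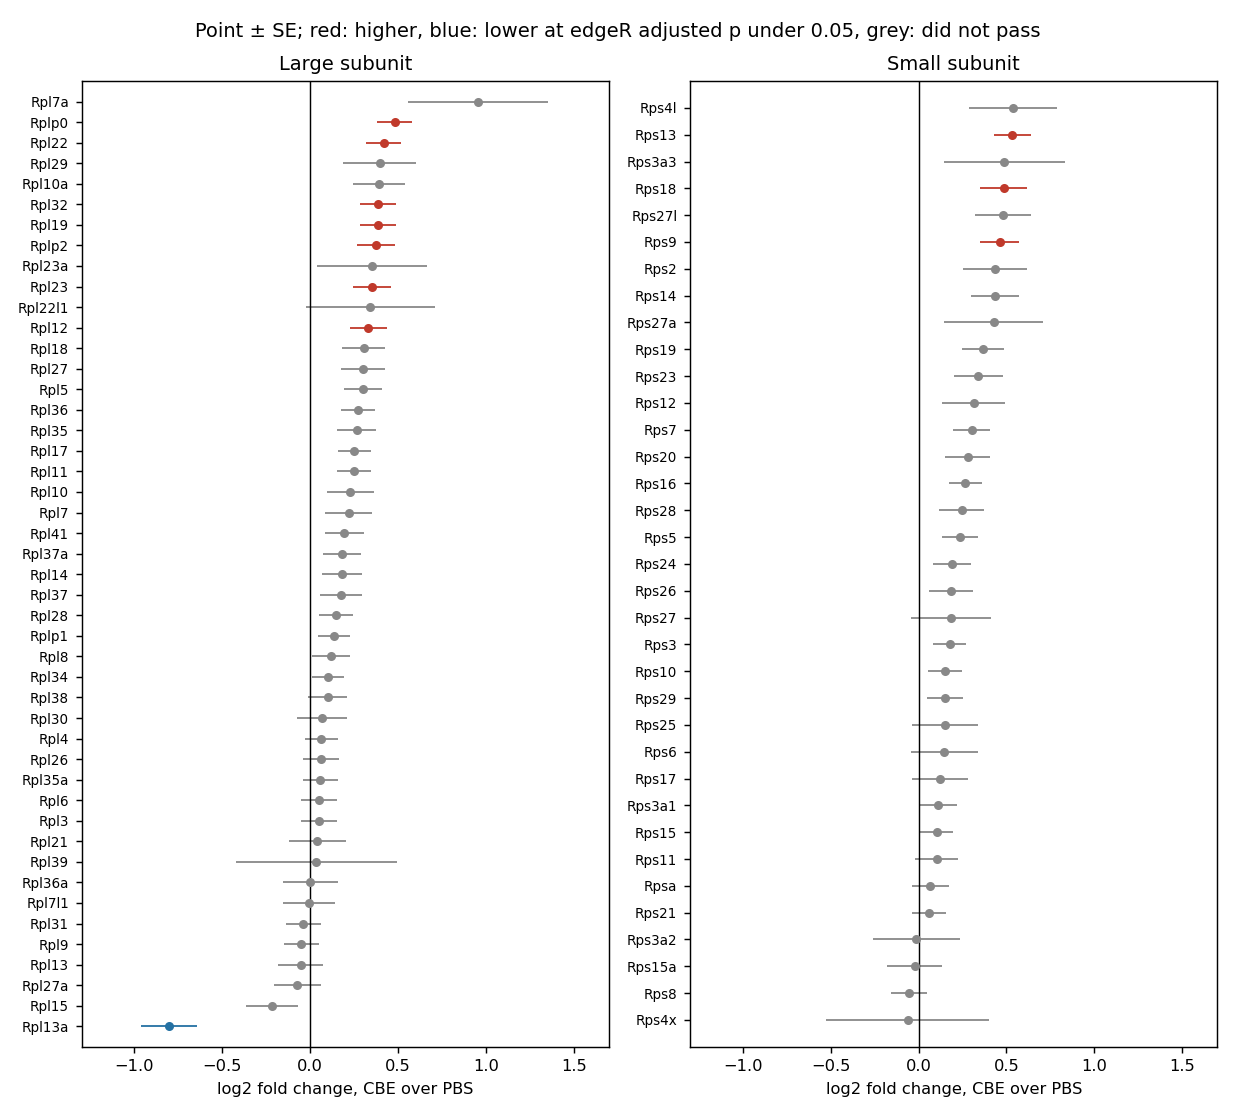
Log2 fold change of CBE over PBS for 46 of the 47 tested large-subunit genes (left) and the 35 tested small-subunit genes (right), ordered by size. Points are estimates and lines their SE; red members were higher and the blue member, Rpl13a at -0.80, lower at an edgeR adjusted p under 0.05, and grey members did not pass.

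Rps13, a protein of the body of the small subunit (chromosome 7, 116331505 to 116334195), had the smallest p among the members that rose. Its level was 548, 486, 537 and 465 CPM in PBS and 704, 625, 838 and 775 CPM in CBE, replicates in numerical order. Every CBE library was above every PBS library, and the means went from 509 ± 40.1 to 735 ± 91.5 CPM (SD, n = 4 and 4). The log2 fold change was 0.53 ± 0.11 (SE; edgeR adjusted p = 0.0030). Rps9, another core small-subunit protein that is laid down early in assembly (chromosome 7, 3703993 to 3706897), was at 276, 256, 323 and 246 CPM in PBS and 393, 352, 408 and 359 CPM in CBE. The groups did not overlap, with a log2 fold change of 0.46 ± 0.11 (edgeR adjusted p = 0.011). Rps18, a protein of the head of the small subunit (chromosome 17, 33951999 to 33956001), was at 1148, 1006, 1045 and 956 CPM in PBS and 1306, 1149.7, 1706 and 1651 CPM in CBE. The 2 day 40 CBE libraries were the highest, the day 34 replicate 3 was just above the highest PBS library, and the log2 fold change was 0.49 ± 0.13 (edgeR adjusted p = 0.027). Its call ended when any of PBS replicates 3, 4 and 5 or CBE replicates 4 and 6 was left out (edgeR adjusted p up to 0.0921).

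The ribosomal stalk is where elongation factors bind. Rplp0, the scaffold of the stalk (chromosome 5, 115559467 to 115563727), was at 390.0, 427, 431 and 398 CPM in PBS and 611, 524, 602 and 557 CPM in CBE. All CBE libraries were above all PBS libraries, and the log2 fold change was 0.48 ± 0.10 (edgeR adjusted p = 0.0043). Rplp2, one of the acidic proteins that bind it (chromosome 7, 141447370 to 141451585), was at 793, 733, 834 and 662 CPM in PBS and 987, 929, 991 and 1009 CPM in CBE, again with no overlap. Its log2 fold change was 0.37 ± 0.11 (edgeR adjusted p = 0.034). Rplp1, the partner of Rplp2 in the stalk, did not pass, with 4620.3, 4114, 4403 and 3844 CPM in PBS and 4687, 4881, 4811 and 4267 CPM in CBE and a log2 fold change of 0.13 ± 0.09 (edgeR adjusted p = 0.40). Rpl12, which sits at the base of the stalk (chromosome 2, 32961559 to 32965345), was at 753, 655, 716 and 597 CPM in PBS and 820.2, 779.8, 971 and 848 CPM in CBE. Its groups were apart and its log2 fold change was 0.33 ± 0.10 (edgeR adjusted p = 0.049). Rplp2 lost its call without PBS replicate 3 or 5 or CBE replicate 2, 4 or 6 (edgeR adjusted p up to 0.104), and Rpl12 lost it without any of 9 libraries (up to 0.144).

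Other large-subunit proteins that rose lie in different parts of the particle. Rpl22, an RNA-binding protein that mature ribosomes can do without (chromosome 4, 152325742 to 152334071), was at 395, 376, 365 and 361 CPM in PBS and 538, 523, 465 and 473 CPM in CBE. The groups were well apart, and the day 34 CBE libraries were the highest (log2 fold change 0.42 ± 0.10, edgeR adjusted p = 0.012). Rpl19, which helps to bridge the subunits (chromosome 11, 98026710 to 98030492), was at 137, 136, 157 and 143 CPM in PBS and 197, 178, 195 and 178 CPM in CBE, with no overlap (0.38 ± 0.10, edgeR adjusted p = 0.021). Rpl32 (chromosome 6, 115805505 to 115808747) was at 1016, 967, 1011 and 848 CPM in PBS and 1357, 1184, 1158 and 1320.1 CPM in CBE (0.39 ± 0.10, edgeR adjusted p = 0.023). Rpl23, which can also bind the p53 regulator MDM2 (chromosome 11, 97777527 to 97782437), was at 769, 687, 609 and 631 CPM in PBS and 912, 845, 853 and 828 CPM in CBE (0.35 ± 0.11, edgeR adjusted p = 0.049). In both of these genes all CBE libraries were above all PBS libraries. Rpl12 and Rpl23 fall outside the naming rule and were named after their values were seen.

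**Figure D3:**
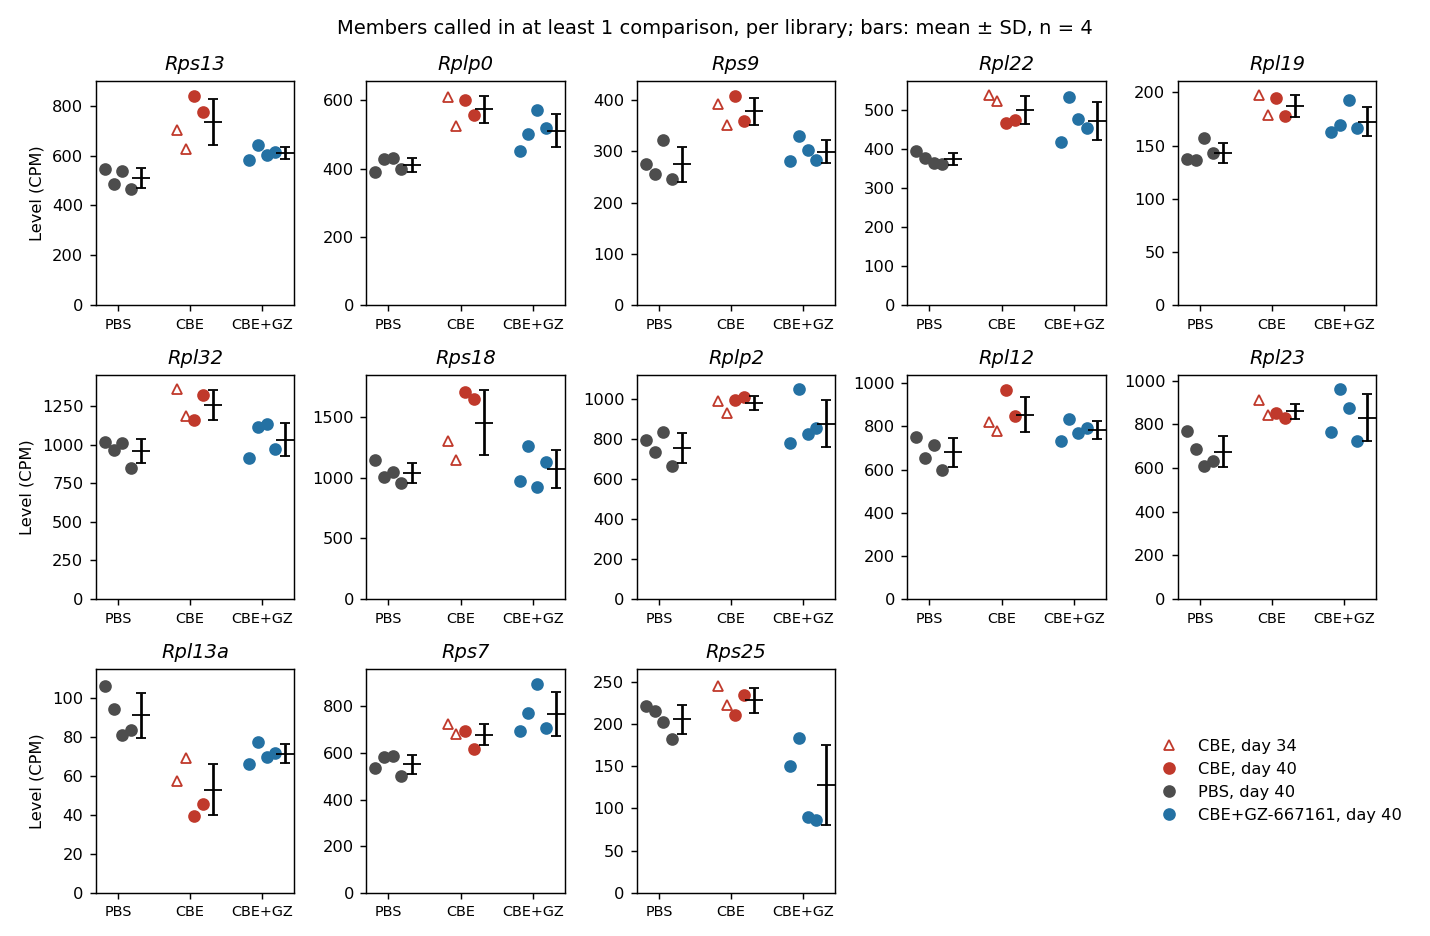
Level in CPM (y axes from 0) of 13 members that passed in at least 1 comparison, for PBS, CBE and CBE+GZ-667161 libraries (open triangles day 34 CBE, filled circles day 40), with bars for the mean ± SD of 4. Rpl13a sits at 39.2 to 68.9 CPM in CBE against 80.8 to 106 in PBS, and Rps25 is lowest in CBE+GZ-667161 replicates 4 and 5, at 89.8 and 86.4 CPM.

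Rpl13a, a protein of the large subunit that in myeloid cells exposed to interferon-gamma can leave the ribosome and silence transcripts (chromosome 7, 45125558 to 45128761), was the 1 member that fell. Its level was 106, 94.0, 80.8 and 83.2 CPM in PBS and 57.1, 68.9, 39.2 and 45.7 CPM in CBE. Every CBE library was below every PBS library, and the day 40 CBE libraries were the lowest. The means were 91.0 ± 11.6 and 52.7 ± 13.1 CPM (SD, n = 4 and 4), and on the log2 scale CBE was -0.80 ± 0.16 relative to PBS (SE; edgeR adjusted p = 0.0028). In CBE+GZ-667161 it was at 66.1, 77.5, 69.7 and 71.7 CPM, below all PBS libraries and above 3 of the 4 CBE libraries. Neither difference of the CBE+GZ-667161 group passed, with log2 fold changes of -0.35 ± 0.15 against PBS (edgeR adjusted p = 0.31) and 0.45 ± 0.16 against CBE (edgeR adjusted p = 0.17). Without the day 40 CBE samples the fall of Rpl13a was -0.51 on the log2 scale and did not pass (edgeR adjusted p = 0.0822).

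The count of members higher in CBE depended on which libraries were used. It was 3 (Rplp0, Rpl22 and Rps27l) without the day 40 CBE samples, an alternative chosen after seeing the data, and 9 without the day 34 CBE samples. Over all genes the count higher was 877 in the main fit, 652 without the day 40 samples and 1043 without the day 34 ones. The count of members higher was 7, 6, 7, 6 and 5 without PBS replicate 3, PBS replicate 5, CBE replicate 2, CBE replicate 4 and CBE replicate 6. In these fits 794, 711, 845, 773 and 715 of all genes were higher. The median log2 fold change of the members stayed between 0.1334 and 0.2667 in all leave-one-out fits. Rps13, Rplp0, Rps9, Rpl22 and Rpl13a passed whichever single library was left out, and of these Rplp0 and Rpl22 also passed without the day 40 CBE samples, while Rpl22 did not pass without the day 34 ones (edgeR adjusted p = 0.0943). Rpl19 lost its call without PBS replicate 5 or CBE replicate 2 or 4, Rpl32 without PBS replicate 5 or CBE replicate 2 or 6, and Rpl23 without any of 8 libraries. Rpl19, Rpl32, Rpl23 and Rplp2 also lost theirs with Xist as a covariate, with the replicate block and without the CBE samples of either day, and Rps18 and Rpl12 with Xist, with the block and without the day 40 samples. Of the 11 members higher, 4 (Rps13, Rplp0, Rps9 and Rpl22) passed with Xist and the same 4 with the block. The authors' deposited table gave 15 members as higher and 1 as lower in CBE at an adjusted p under 0.05, where that table called 9.74% of all genes, and all 12 members that passed in edgeR were among them. The members that table added were Rps14, Rps19, Rps27l and Rpl36.

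Members just short of the threshold included further small-subunit genes. Those given here, Rps14 and Rps19, fall outside the naming rule for CBE against PBS and were picked after their values were seen. Rps14, whose product lies at the messenger exit of the small subunit, was at 2062, 1642, 2004 and 1712 CPM in PBS and 2148, 1949, 3007 and 2914 CPM in CBE. The day 34 CBE libraries lay within or just above the PBS range and the day 40 ones far above it (log2 fold change 0.43 ± 0.14, edgeR adjusted p = 0.053). Rps19, the gene most often mutated in Diamond-Blackfan anaemia, was at 1316, 1047, 1135 and 1088 CPM in PBS and 1449, 1442, 1491 and 1528 CPM in CBE, with no overlap (0.37 ± 0.12, edgeR adjusted p = 0.054).

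Some ribosomal proteins have a second gene copy. Rps27l, a paralog of Rps27 and a target of p53, was at 51.6, 53.4, 43.6 and 52.0 CPM in PBS and 86.8, 77.2, 51.1 and 67.5 CPM in CBE (log2 fold change 0.48 ± 0.16, edgeR adjusted p = 0.064), and it passed by DESeq2 (adjusted p = 0.0433). CBE replicate 4 was the one CBE library among the PBS values, and without it Rps27l passed (0.62, edgeR adjusted p = 0.0156). Rps27 itself was at 361, 352, 279 and 283 CPM in PBS and 418, 164, 407 and 455 CPM in CBE, with the low value in replicate 3 (0.18 ± 0.23, edgeR adjusted p = 0.67). Rpl22l1, whose transcript Rpl22 protein can hold down, was at 2.77 to 5.86 CPM in PBS, 3.50 to 8.08 in CBE and 2.95 to 6.49 in CBE+GZ-667161, and with 213 counts in all its log2 fold change of 0.34 ± 0.37 did not pass (edgeR adjusted p = 0.61). Rpl7 and Rpl7l1 had log2 fold changes of 0.22 ± 0.13 and -0.01 ± 0.15 (edgeR adjusted p = 0.33 and 0.98). Rps4x, on the X chromosome, was at 3.08 to 13.8 CPM in PBS and 5.60 to 12.9 in CBE (-0.06 ± 0.46, edgeR adjusted p = 0.95), and Rps4l, the annotated pseudogene, at 27.9 to 58.9 and 44.2 to 64.4 CPM (0.54 ± 0.25, edgeR adjusted p = 0.20). With Xist as a covariate Rps4l was at 0.89 and passed (edgeR adjusted p = 0.0258). Rpl39 (0.03 ± 0.46), Rpl10 (0.23 ± 0.13) and Rpl3 (0.05 ± 0.10) did not pass either (edgeR adjusted p = 0.98, 0.31 and 0.81). Rpl3l and Rpl10l, which the naming rule also lists, were not analysed here. In CBE+GZ-667161 Rps4x was at 2.09 to 8.91 CPM, with 311 counts over all libraries. Its log2 fold changes of -1.35 against PBS and -1.29 against CBE did not pass (edgeR adjusted p = 0.191 and 0.211). Without PBS replicate 5 the difference of Rps4x from PBS passed (edgeR adjusted p = 0.0313).

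Rpl5, Rpl11, Rpsa and Rps27a, which also act outside the ribosome, did not pass by edgeR. Rpl5 and Rpl11, which form a particle with 5S ribosomal RNA that can bind MDM2, had log2 fold changes of 0.30 ± 0.11 and 0.25 ± 0.09 (edgeR adjusted p = 0.087 and 0.11), and both passed by DESeq2 (adjusted p = 0.0397 and 0.0449). In both, all CBE libraries were above all PBS libraries, with 315 to 381 against 273 to 302 CPM for Rpl5 and 889 to 981 against 701 to 842 CPM for Rpl11. Rpsa, the small-subunit protein also known as the laminin receptor, was at 736 to 941 CPM in PBS and 794 to 924 in CBE (0.07 ± 0.11, edgeR adjusted p = 0.74). Rps27a, which encodes ubiquitin fused to a small-subunit protein, was at 160.4 to 459 CPM in PBS and 284 to 550.1 in CBE (0.43 ± 0.28, edgeR adjusted p = 0.37).

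The comparison of CBE+GZ-667161 with PBS asked what differs from controls when the synthesis of glucosylceramide is inhibited during CBE treatment. By edgeR 1 of the 82 members was higher and 0 were lower, where 3.11% of all genes were higher and 0.333% lower (3.45% in all). With no adjustment, at p under 0.05, 16 members were higher and 3 lower, against 8.19% and 4.94% of all genes. The counts higher and lower were 3 and 1 by DESeq2 and 1 and 1 by limma-voom, where 570 and 425 of all genes passed in either direction. In 7 members all CBE+GZ-667161 libraries lay above all PBS libraries and in 1 all lay below, against 6.65% and 3.12% of all genes. The median log2 fold change of the members was 0.09 and of all genes -0.00, and 54 members lay above 0. Rps7, a small-subunit protein that can also bind MDM2 (chromosome 12, 28630854 to 28635953), was at 535, 581, 586 and 499 CPM in PBS and 693, 773, 896 and 705 CPM in CBE+GZ-667161. The groups were apart, the means were 550.3 ± 41.1 and 767 ± 93.0 CPM (SD, n = 4 and 4), and the log2 fold change was 0.48 ± 0.11 (edgeR adjusted p = 0.014). In CBE it was at 723, 681, 692 and 617 CPM, also above all PBS libraries, and did not pass against PBS (0.30 ± 0.11, edgeR adjusted p = 0.079). The difference between CBE+GZ-667161 and CBE did not pass either (0.18 ± 0.11, edgeR adjusted p = 0.42). Without PBS replicate 5 the call of Rps7 ended (edgeR adjusted p = 0.055).

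Next to Rps7, the smallest p belonged to Rps25, Rpl22 and Rplp0, none of which passed by edgeR. All of them passed by DESeq2 (adjusted p = 0.014, 0.0338 and 0.0436), and Rps25, lower than in PBS, also by limma-voom and with the replicate block. Rpl22 was at 419, 534, 478 and 453 CPM in CBE+GZ-667161, above all PBS libraries (log2 fold change 0.33 ± 0.10, edgeR adjusted p = 0.096), and Rplp0 at 453, 501, 571 and 518 CPM, likewise above all of them (0.31 ± 0.10, edgeR adjusted p = 0.12). Both comparisons with PBS share the 4 PBS libraries, so the values in CBE and CBE+GZ-667161 are given side by side only. For Rps13 these were log2 fold changes of 0.53 ± 0.11 and 0.26 ± 0.10, for Rps9 0.46 ± 0.11 and 0.13 ± 0.11, for Rps18 0.49 ± 0.13 and 0.05 ± 0.13, and for Rpl19 0.38 ± 0.10 and 0.27 ± 0.10. In the authors' deposited table Rplp0 and Rps7 were the members called in this comparison, both higher, where it called 3.27% of all genes.

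The comparison of CBE+GZ-667161 with CBE asked directly what the inhibitor changed. None of the 82 members was higher by edgeR (0 also by DESeq2 and limma-voom) and 1 was lower, where 0.444% of all genes were higher and 0.832% lower. With no adjustment, at p under 0.05, 2 were higher and 14 lower, against 8.02% and 8.50% of all genes. In 7 members all CBE+GZ-667161 libraries lay below all CBE libraries and in 0 all lay above, against 3.98% and 4.11% of all genes. The median log2 fold change was -0.12, against 0.01 over all genes, and 19 members lay above 0. Rps25, a small-subunit protein needed for translation from some internal entry sites (chromosome 9, 44407139 to 44410427), was at 245, 222, 211 and 234 CPM in CBE and 149.7, 184, 89.8 and 86.4 CPM in CBE+GZ-667161. All CBE+GZ-667161 libraries were below all CBE libraries, with replicates 4 and 5 the lowest, and the log2 fold change was -0.83 ± 0.19 (edgeR adjusted p = 0.042). In PBS it was at 221, 216, 203 and 182 CPM, so that the PBS and CBE values overlapped (0.15 ± 0.19, edgeR adjusted p = 0.67). The call ended when any of 9 of the 12 libraries was left out (edgeR adjusted p up to 0.127). It also ended with Xist as a covariate, with only the 2 groups compared, with the replicate block and without the CBE samples of either day (edgeR adjusted p up to 0.185). With Xist and with the block the 1 member called lower was Rps4l. Against PBS Rps25 did not pass by edgeR (-0.68 ± 0.19, edgeR adjusted p = 0.062).

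Rps19, Rps18 and Rpl7 followed and did not pass by edgeR, while all of them passed by DESeq2 (adjusted p = 0.0243, 0.0411 and 0.0473). Rps19 was at 1127, 1197, 862 and 1278 CPM in CBE+GZ-667161, below all 4 CBE libraries (log2 fold change -0.41 ± 0.12, edgeR adjusted p = 0.090). Rps18 was at 974, 1261, 920.4 and 1134 CPM, within the range of PBS apart from replicates 3 and 4 (-0.44 ± 0.13, edgeR adjusted p = 0.11). Rpl7 was at 184, 175, 173 and 227 CPM against 289, 248, 286 and 196 CPM in CBE (-0.43 ± 0.13, edgeR adjusted p = 0.12). In the authors' deposited table Rps18 and Rps19 were lower at an adjusted p under 0.05, Rps25 was not, with an adjusted p of 0.084, and 2.28% of all genes were called. Over all genes 1.28% passed in edgeR in either direction, and 1 call among 82 members is close to that share.

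Day 40 and day 34 CBE samples were compared in a fit with 4 groups, with 2 samples each. No member passed in either direction by edgeR, where 0.261% of all genes were higher and 0.404% lower (0.665% in all). The counts higher and lower were 2 (Rps14 and Rpl29) and 0 by DESeq2, 0 and 0 by limma-voom, and 5 and 5 at p under 0.05 with no adjustment, against 7.56% and 7.95% of all genes. With 2 libraries a side, 18 members lay wholly higher and 19 wholly lower at day 40, against 24.4% and 23.7% of all genes. The median log2 fold change was -0.00 and 40 of 82 members lay above 0. Rps14 was at 3007 and 2914 CPM at day 40 and 2148 and 1949 CPM at day 34 (0.53 ± 0.15, edgeR adjusted p = 0.0997). Rpl29, a small basic protein of the large subunit, was at 599 and 528 CPM at day 40 and 352 and 293 CPM at day 34 (0.80 ± 0.22, edgeR adjusted p = 0.10). Rpl27a (-0.47 ± 0.15, edgeR adjusted p = 0.15) and Rpl13a (-0.57 ± 0.18, edgeR adjusted p = 0.16) were at the other end. Rpl13a lay at 39.2 and 45.7 CPM at day 40 and 57.1 and 68.9 CPM at day 34, while its PBS libraries, all of day 40, were at 80.8 CPM or more.

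Other genes of the translation machinery were described by the same counts in CBE against PBS, where 6.95% of all genes were higher and 4.04% lower. Of 20 other genes with 5′ TOP messengers 1 rose, with a list median of 0.25 on the log2 scale. This list shares genes, such as Eef1g and Eif3e, with the elongation and initiation factor lists below. The gene that rose was Fau, which encodes a small-subunit protein fused to a ubiquitin-like domain, from 531 ± 29.8 to 667 ± 37.2 CPM (log2 fold change 0.33 ± 0.09, edgeR adjusted p = 0.031). Rack1, a scaffold on the small subunit, was at 0.28 ± 0.10 (edgeR adjusted p = 0.079), Eef1a1, the elongation factor that brings aminoacyl-tRNA, at 0.28 ± 0.12 (edgeR adjusted p = 0.15) and Tpt1 at 0.04 ± 0.20 (edgeR adjusted p = 0.93). Among 9 elongation factors and related genes 1 rose and 1 fell. Eef2k, the kinase that inhibits elongation factor 2, rose from 13.1 ± 4.79 to 30.6 ± 7.73 CPM (1.28 ± 0.26, edgeR adjusted p = 0.0033). Eef1a2, the form of the elongation factor found in neurons and muscle, fell from 1159 ± 281 to 776 ± 76.1 CPM (-0.58 ± 0.15, edgeR adjusted p = 0.018), beside the lower neuron markers given above.

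None of 40 initiation factor genes passed by edgeR or limma-voom and 1 was higher by DESeq2. With no adjustment, at p under 0.05, 5 were higher and 2 lower, and the median was 0.11. Of 14 small nucleolar RNA host genes 1 rose, Zfas1 (0.70 ± 0.14, edgeR adjusted p = 0.0027), with a median of 0.43 and 13 of 14 above 0. Many such host genes are also 5′ TOP transcripts. Of 37 ribosome biogenesis and nucleolar genes 3 rose and 0 fell, with a median of 0.03. At p under 0.05 with no adjustment, 6 of 20 other 5′ TOP genes, 8 of 14 host genes and 5 of 37 biogenesis genes were higher. The counts lower were 1, 0 and 3, and of all genes 13.1% were higher and 11.7% lower. DESeq2 gave 2, 2 and 4 higher and 0, 0 and 1 lower. By edgeR 1 of 20, 1 of 14 and 3 of 37 were higher, near the share over all genes. The 3 were Pes1, a factor of large-subunit maturation (0.61 ± 0.17, edgeR adjusted p = 0.028), Nmd3, an export adaptor of the large subunit (0.63 ± 0.19, edgeR adjusted p = 0.045), and Myc, a transcription factor that drives ribosome production (1.27 ± 0.38, edgeR adjusted p = 0.040). The genes in these lists were named after their values were seen. Of 75 mitochondrial ribosomal proteins 2 fell and 0 rose by edgeR, 5 fell and 1 rose by DESeq2, and 5 fell and 0 rose by limma-voom (7 and 5 at p under 0.05 with no adjustment), with a median of -0.03. Of 75 nuclear respiratory chain and ATP synthase subunits 4 fell and 0 rose by edgeR, and 0 rose by either other tool or at p under 0.05 with no adjustment (median -0.04).

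**Figure D4:**
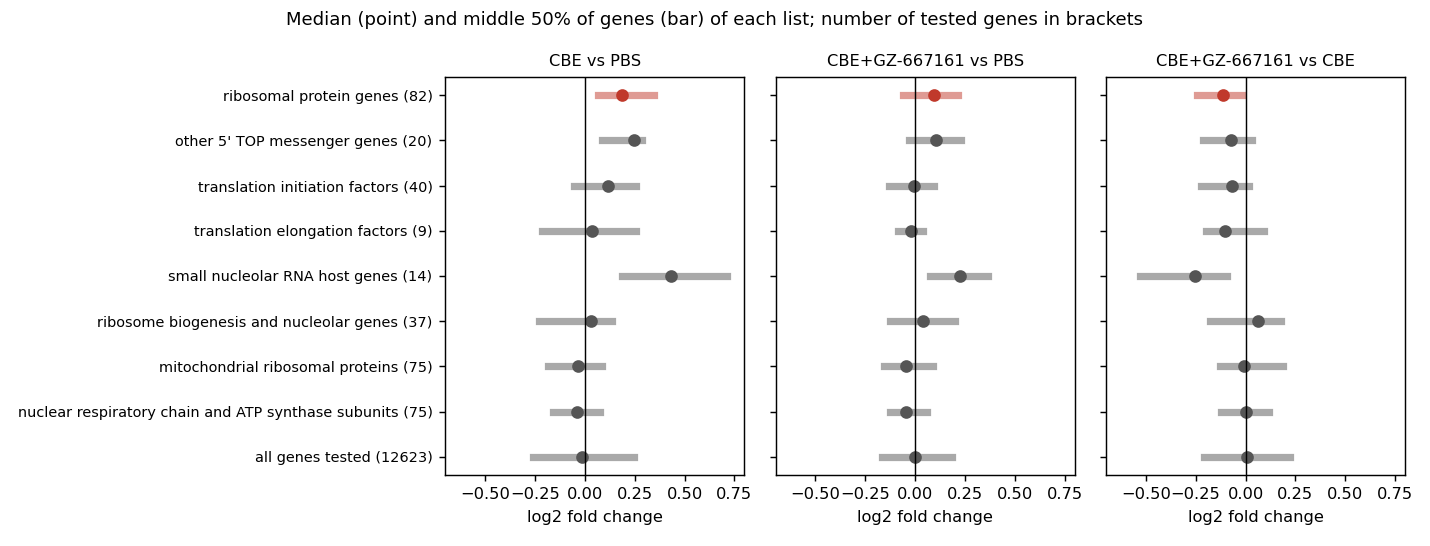
Median (point) and middle 50% (bar) of log2 fold changes for the ribosomal protein genes, other lists of the translation machinery, 2 lists of mitochondrial proteins and all genes tested, in the 3 comparisons between groups. For the ribosomal protein genes the medians are 0.19 for CBE over PBS, 0.09 for CBE+GZ-667161 over PBS and -0.12 for CBE+GZ-667161 over CBE.

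With GZ-667161 the same lists were compared with PBS. The other 5′ TOP genes lay at 0.11, with 0 of 20 called by edgeR and limma-voom, 1 higher by DESeq2, and 3 higher and 0 lower at p under 0.05 with no adjustment. Small nucleolar RNA host genes lay at 0.22, with 0 of 14 called by edgeR, DESeq2 and limma-voom and 1 higher at p under 0.05 with no adjustment. Initiation factors lay at -0.00, with 0 of 40 called by the same tools and 0 at p under 0.05 with no adjustment. Nmd3 was the 1 of 37 biogenesis genes that was higher (0.75 ± 0.19, edgeR adjusted p = 0.030), with a list median of 0.04. Whether these medians differ between the groups was not tested.

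Some members varied between replicates far more than the rest, and their tags can be shared with other genes. The median within-group SD of log2 CPM was 0.153 over the members, but it was 0.713 for Rpl7a, 0.636 for Rpl23a, 0.531 for Rps27a and 0.439 for Rps27. Rpl7a, a large-subunit protein gene, was at 539 CPM in CBE replicate 3, 510.1 in CBE+GZ-667161 replicate 2 and 423 in CBE+GZ-667161 replicate 4, and at 121 to 185 CPM in the other 9 libraries. Rpl23a, whose product lies beside the exit of the peptide tunnel, was at 303 CPM in PBS replicate 3 and 191 CPM in CBE+GZ-667161 replicate 4, and at 595 CPM or more elsewhere. The high libraries of Rpl7a and the low ones of Rpl23a belong to more than 1 group each. The log2 fold change of Rpl7a in CBE, 0.96 ± 0.40, did not pass (edgeR adjusted p = 0.14).

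To see how far tags could be confused, 1 protein-coding GENCODE vM21 transcript was chosen per member. Its last 300 bases, without trailing A bases, were read as overlapping 50-base stretches, and other ends of the gene were not read. The share of stretches also present, on either strand, in a transcript of another gene was counted for 81 members, all but the 3 annotated pseudogenes. It was 0% for Rplp0, Rpl22, Rpl13a and Rpl12, 6.4% for Rplp2, 8.0% for Rps7 and 10.8% for Rpl23. It was 30.3% for Rpl32, 34.7% for Rps9, 63.7% for Rps25, 66.9% for Rpl19, 78.9% for Rps18 and 88.0% for Rps13, whose levels are uncertain, since the sources used here do not give how tags with several matches were counted. Rpl24, which was too low to be tested, had 81.7%. Among the 74 of these with a mean log2 CPM of at least 5, the 8 with the largest spread, namely Rpl7a, Rpl23a, Rps27a, Rps27, Rpl29, Rps25, Rps6 and Rps2, all had more than 50% of their stretches in other genes. Such sharing was common, since most of the 74 also had more than 50%. In 25 of them it was over 75%, and the SDs of those 25 ran from 0.111 to 0.713. Rps4l, with no end counted, had an SD of 0.423 at a mean log2 CPM of 5.39. The median SD was 0.14 in 27 members with at most 25% shared stretches, 0.131 in 22 with over 25% to 75% and 0.196 in 25 with over 75%, and the highest was 0.265, 0.367 and 0.713. In CBE against PBS the median log2 fold changes of the 3 classes were 0.1871, 0.1491 and 0.2676, with 6, 3 and 2 members higher and 1, 0 and 0 lower.

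**Figure D5:**
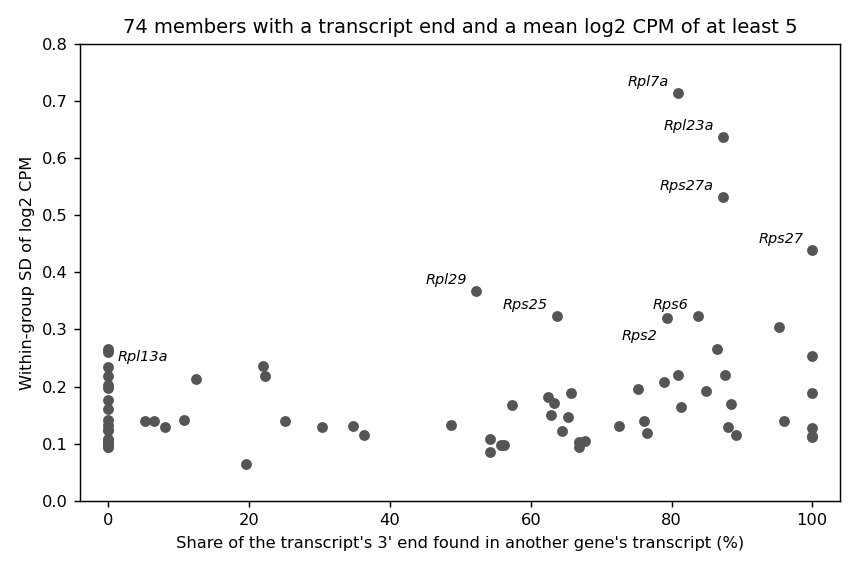
Within-group SD of log2 CPM (y axis) against the share of the transcript's 3′ end stretches found in another gene's transcript (x axis, %), 1 point for each of 74 members with a transcript end and a mean log2 CPM of at least 5 (Rps4l has no end counted and is not drawn). The 8 labelled points of highest SD lie between 52.2% and 100%, as do most of the points drawn, and Rpl13a, labelled at 0%, shares no stretch.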

How the data were processed

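Per the labels' protocols, 12 samples of whole-brain RNA were read with bulk MARS-seq. The authors deposited raw counts per gene symbol, which were used as they stand. HISAT 0.1.6, HTSeq, cutadapt, DESeq2 and the mouse build mm10 (GRCm38) are named in the submitters' processing notes. The sources used here do not give how molecular identifiers, strand and tags with several matches were handled. The authors' deposited table holds a log2 fold change and an adjusted p-value per gene, with the sign turned here so that the first-named group is over the second. A deposited normalized table was not used.

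Of 16505 entries, 23 with a date in place of a symbol (0.266% to 0.347% of a library) were left out, and totals were 1753626 to 6499257. Counts were scaled with TMM, filtered with filterByExpr (minimum count 10, total 15) and tested with edgeR 4.0.16 (quasi-likelihood) in one fit of 3 groups, or of 4 for the days of CBE, with Benjamini-Hochberg adjustment over 12623 genes at 0.05. Levels are CPM of scaled libraries. Replicates of a group differed beyond counting noise (chi-square per degree of freedom at least 3.29), and the biological coefficient of variation was 0.193. Alternatives were DESeq2 1.42.0, limma-voom (limma 3.58.1), other scalings, no filter, a threshold of 0.01, Xist or replicate number as terms, fewer groups, either day of CBE left out and each library left out. The steps were tested on simulated data. R 4.3.3 and Python 3.11.15 were used.

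Genes named were those that passed (up to 8 in each direction by p), the 4 of smallest p where fewer than 4 passed, and fixed stalk, paralog, 5S particle and fusion genes. A result the rule took is not reported here. Members and lists were chosen with earlier results of these data known.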

Additional observations from a re-analysis of the deposited data

Results flagged for a closer look

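Among the levels of 35 genes and 3 summed shares in each of the 3 groups (114 groups of 4 libraries), 2 held a library far from the other 3, by the gap to its neighbour over the group's range. The genes were those of the naming rule, Rpl12, Rpl23, and the 8 members with a within-group SD above 0.4. Rpl7a was taken only because of that spread, so its flag cannot be set against chance. For groups not chosen by their spread, chance flags about 1 in 20. In CBE replicate 3, a day 34 sample and the shallowest library, Rpl7a was at 539.3 CPM against 162.8 to 184.5 CPM in the other CBE libraries. In the same library Rps27 was at 163.9 CPM against 407.2 to 455.3 CPM. The last 300 bases of these transcripts are shared with other genes in 80.9% (Rpl7a) and 100% (Rps27) of the stretches counted. Whether this has a part in either value was not tested.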

How the results depend on the processing

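In CBE against PBS the count of members higher, 11, was 20 by DESeq2 and 2 at an adjusted p under 0.01. It was 7 with Xist as a covariate (4 of the 11 among them). Without the day 40 CBE samples 3 were higher and 0 lower. Over all genes the count higher was 877 in the main fit, and 997, 534, 732 and 652 in these fits in turn. The count of members higher was 5 to 13 when each library was left out, where 711 to 959 of all genes were higher. The count of members lower was then 1 throughout. In CBE+GZ-667161 against PBS the counts higher and lower, 1 and 0, were 3 and 1 by DESeq2. By limma-voom 1 was lower, and 0 were higher at 0.01. Leaving out libraries gave 0 to 2 higher and 0 to 1 lower. Over all genes 435 passed in either direction, 570 by DESeq2, 425 by limma-voom and 261 at 0.01. In CBE+GZ-667161 against CBE the count lower, 1, was 5 by DESeq2, 0 at 0.01, 0 with only the groups compared, 2 without the day 34 CBE samples (with 2 higher) and 0 without the day 40 ones, and 0 to 2 when each library was left out. Between the days of CBE 2 were higher by DESeq2, where 247 of all genes passed in either direction, against 84 by edgeR. A stricter threshold lowers such counts by construction; the other causes were not tested. The median of the members kept its sign in all these fits for the 3 comparisons between groups, at 0.1334 to 0.2667, 0.0495 to 0.1541 and -0.1514 to -0.06261. Another scaling left each median of all genes within 0.1.

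Same-numbered samples did not deviate together (correlations of -0.0783 to 0.240 over 10 pairs, 1 of them over 0.1), so the numbers were not taken to pair samples. With the replicate block the counts higher and lower were 5 and 1 for CBE against PBS, 1 and 1 for CBE+GZ-667161 against PBS and 0 and 1 for CBE+GZ-667161 against CBE. Of the 11 members higher in CBE 4 kept their call with the block. The 1 lower in CBE+GZ-667161 than in CBE was then Rps4l in place of Rps25, as with Xist as a covariate, and Rps25 was the 1 lower than in PBS. Rps27 (-0.0669, CBE over PBS) and Rpl5 (0.009094, CBE+GZ-667161 over CBE) changed sign.

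Other sign changes were of genes that never passed in the fit concerned. For CBE over PBS these were Rpl7l1 (0.004947 with upper-quartile factors, 0.001261 with scaling without the members, 0.007097 without day 34), Rps4x (0.2443 by limma-voom, 0.02364 without day 40) and Rps27 (-0.1155 without day 40). For CBE+GZ-667161 over CBE, Xist as a covariate gave 0.01401 for Rplp1, 0.2943 for Rpl22l1 and 0.005506 for Rpl10, and leaving out day 34 gave 0.008781 for Rplp1, 0.007584 for Rpl22, 0.02694 for Rpl22l1, 0.1736 for Rps27l and 0.1334 for Rpl10. Between days, upper-quartile factors gave -0.01149 for Rplp0, -0.01291 for Rpl39 and -0.007737 for Rpl11.

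Leaving out each library in turn also changed signs, again of genes that did not pass. The lowest and highest values for CBE over PBS were -0.08782 to 0.05697 (Rpl7l1), -0.1396 to 0.2881 (Rpl39) and -0.401 to 0.1512 (Rps4x). For CBE+GZ-667161 over PBS they were -0.1268 to 0.0115 (Rpsa), -0.05737 to 0.3637 (Rpl22l1), -0.5461 to 0.1645 (Rpl39), -0.4867 to 0.03618 (Rps4l) and -0.459 to 0.008955 (Rps27a). For CBE+GZ-667161 over CBE they were -0.07545 to 0.0124 (Rplp1), -0.3861 to 0.02329 (Rpl22l1), -0.2044 to 0.04333 (Rps27l), -0.5721 to 0.1256 (Rpl39) and -0.14 to 0.03259 (Rpl10). For day 40 over day 34 they were -0.07766 to 0.1436 (Rplp0), -0.1637 to 0.005086 (Rplp1), -0.03248 to 0.1875 (Rpsa), -0.165 to 0.02474 (Rpl3), -0.4529 to 0.08644 (Rpl7), -0.08722 to 0.1622 (Rpl7l1), -0.1832 to 0.2706 (Rpl39), -0.8518 to 0.3521 (Rps4x) and -0.02833 to 0.09094 (Rpl11).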
